A study of Homo sapiens with 10 samples.

Results

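The genes described here are the 172 expressed genes of the distal long arm of chromosome 4, a stretch in which many genes of unrelated function were expressed at a lower level in clones lacking *VEGFC-LNC* than in their controls. A gene belonged to the stretch when its transcript started at base 106290234 of hg19 chromosome 4 or later, which places the first member, *PPA2*, at 106.29 Mb and the last, *FRG1*, at 190.86 Mb. Of 419 gene symbols in that stretch, 236 did not reach the expression filter, an FPKM times length in kb of at least 1 in 2 or more of the 10 libraries. A further 11 reached it but were left out by the rule, among them *VEGFC* itself. The 172 members are part of 13333 genes that passed the same filter, of which 270 lie on chromosome 4 before the stretch and 12880 on other chromosomes. The stretch was selected on the comparison of *VEGFC-LNC* clones with their controls in these same libraries. That comparison, and every comparison that shares its clones or its controls, is therefore given as a description and not as a test. The stretch was not selected on the comparison of *VEGFA-LNC* clones with their own controls. The rule did leave out single genes with sizeable log2 differences in that comparison, in both directions. Examples are *SPRY1* (1.81), *DDX60* (1.36), *SLC7A11* (-0.85) and *LINC02273* (-0.95).

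RNA-Seq was done on EA.hy926, a human hybrid line made by fusing umbilical vein endothelial cells with the lung carcinoma line A549. With CRISPR/Cas9 the promoter of 1 of 2 long noncoding RNAs was removed, either *VEGFA-LNC*, which lies within *VEGFA*, or *VEGFC-LNC*, which lies upstream of *VEGFC* inside the stretch described here. Each deletion was represented by 3 homozygous clones and by 2 control libraries, from cells given the gRNAs without Cas9 and taken through clonal selection in the same way. A clone descends from a single cell, and the sources used here do not state whether the 2 control libraries of a set come from separate clones. All groups share the parental line, and no stimulus was named in the labels. DNA was not measured in these files, and in bulk RNA fewer cells expressing a gene and less RNA per cell cannot be told apart.

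Depth was 6743970 to 24197657 reads per library, as recovered from the steps of the deposited FPKM values, and the shallowest library was clone 3 of the *VEGFC-LNC* deletion. The 2 control libraries of a set were far more alike than the clones of a deletion, with a median SD over genes of 0.065 and 0.064 on the log2 scale against 0.15 to 0.31 for pairs of clones. Of 9 endothelial markers all passed the filter, including *ENG* at 215 to 545 FPKM and *CDH5* at 56.6 to 312 FPKM, whereas *KDR* stayed between 0.036 and 1.39 FPKM. Of 4 epithelial markers, *KRT8* and *KRT18* were expressed in every library at 95.2 FPKM or more, and *EPCAM* and *CDH1* did not reach the filter. *VEGFC* stood at 9.47 and 10.5 FPKM in the *VEGFC-LNC* controls and at 5.38, 4.84 and 4.63 FPKM in the clones, a log2 difference of -0.998 ± 0.12 (SE).

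Genes of the distal 4q arm have no common function. They include regulators of mitosis such as cyclin A2 and the spindle checkpoint protein MAD2, ribosomal proteins, enzymes of mitochondrial respiration, receptors and ligands of growth factor pathways, and components of innate immunity such as TLR3 and IRF2. Of the 172 members 160 are protein coding, 7 are noncoding RNAs and 5 are pseudogenes. Their median level was 5.72 FPKM, compared with 7.52 FPKM for genes of other chromosomes, and ranged from 0.065 to 591 FPKM.

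Upon *VEGFC-LNC* deletion, the level of 143 of the 172 members was lower than in the controls and that of 29 was higher. The median log2 difference was -0.52, which is 69.9% of the control level, with quartiles of -0.88 and -0.22. Genes of other chromosomes had a median of -0.09, or 94.2% of the control level, and the 270 genes of chromosome 4 before the stretch had a median of -0.13. The 3 clones differed in size but not in direction. The members' median relative to the controls was -0.53 in clone 1, -0.72 in clone 2 and -0.41 in clone 3, whereas for other chromosomes it was -0.05, -0.15 and -0.04. The number of members below the mean of the controls was 150 in clone 1, 145 in clone 2 and 135 in clone 3, and 120 members were lower in all 3 clones. All 3 clones lay below both controls for 113 of the 172 members (65.7%), a pattern seen in 30.6% of all tested genes. All 3 lay above both controls for 7 members (4.07%), against 17.2% of all tested genes. These shares describe the comparison that selected the stretch and lend it no support. For the 93 members with a mean of 5 FPKM or more the median was -0.53 and 84 were lower, and for the 79 below 5 FPKM the median was -0.49 and 59 were lower.

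**Figure D1:**
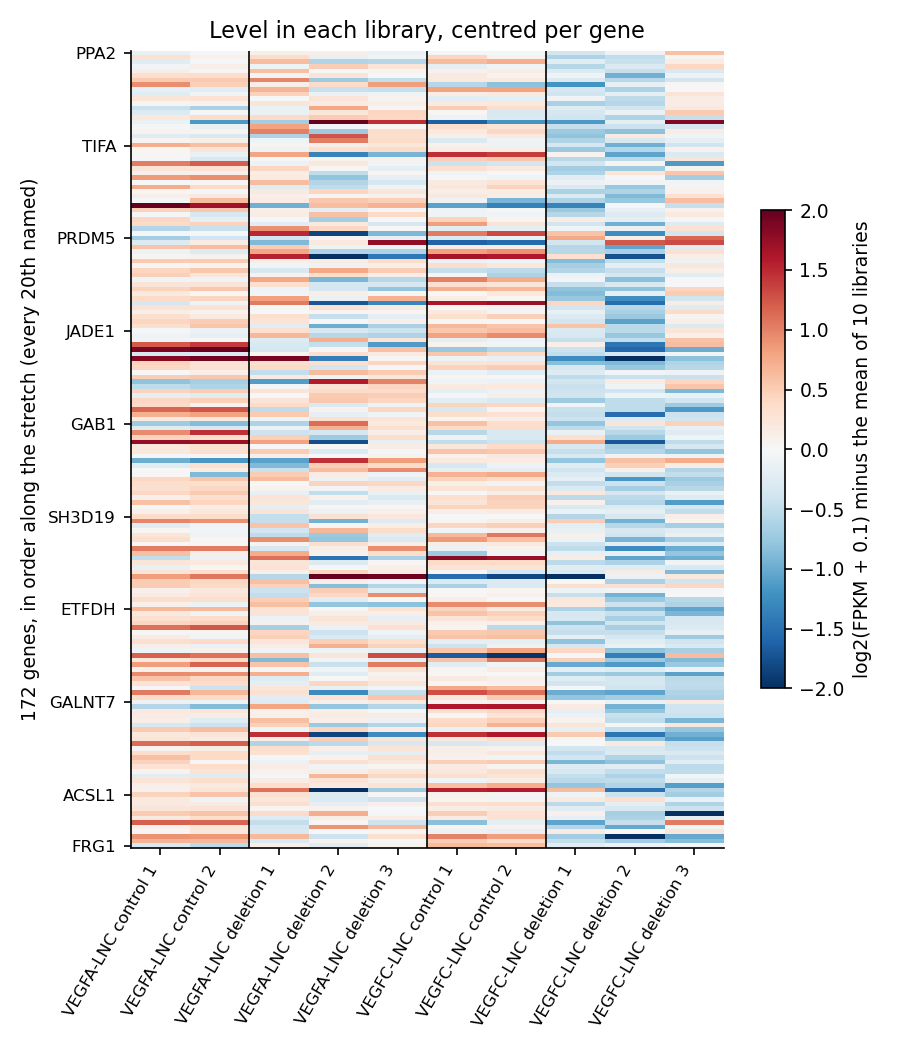
Heat map of the 172 members (rows, in order along the stretch from *PPA2* to *FRG1*) in the 10 libraries (columns, separated by group). Colour gives log2(FPKM + 0.1) minus the mean of the gene over the 10 libraries, and the 3 *VEGFC-LNC* deletion columns are blue for most rows, while single rows such as those of the cell division genes vary in the other groups as well.

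Measured against a common reference, the 2 controls of the *VEGFA-LNC* set, the members were also lower in the *VEGFC-LNC* clones. The stretch was selected on these same clones, so this is a description and lends it no support. Relative to other chromosomes the margin was smaller. The median log2 difference of the members was -0.49, -0.76 and -0.48 in the *VEGFC-LNC* clones and -0.04 and -0.05 in the *VEGFC-LNC* controls. Corresponding medians for other chromosomes were -0.16, -0.28 and -0.15 in the clones and -0.11 in both controls. The members thus stood at -0.33, -0.48 and -0.33 relative to other chromosomes in the clones. With own controls as the reference these values were -0.48, -0.57 and -0.37. The *VEGFC-LNC* controls were close to the *VEGFA-LNC* controls over the stretch as a whole. Their median log2 difference was -0.01, which is 0.10 above that of other chromosomes, with 90 members lower and 82 higher. This held although single members differed strongly between the control sets, as described below.

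Single members reached the threshold used for calling a gene (adjusted p under 0.05 and a change of at least 1.5-fold) in few cases. In the *VEGFC-LNC* comparison 5 members (2.91%) were called lower, where 0.323% of all tested genes were called lower. None of the members was called higher by limma, where 0.15% of all tested genes were, and with voom on recovered reads the count was also 0, against 0.128% of all tested genes. The count called lower with voom is not reported here. At an unadjusted p under 0.05, 90 members (52.3%) were lower and 3 (1.74%) higher, where 12.6% and 6.24% of all tested genes were. For refits with other sets of libraries the share of all tested genes is not given, so their counts describe stability only. The count of 5 depended on which libraries set the spread. It was 50 without *VEGFA-LNC* clone 1, 3 without *VEGFA-LNC* clone 3, 2 without either *VEGFA-LNC* control, 1 without *VEGFC-LNC* clone 2, and 0 without either *VEGFC-LNC* control. It was also 0 with each control pair averaged into 1 value and with only the compared groups in the fit.

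**Figure D2:**
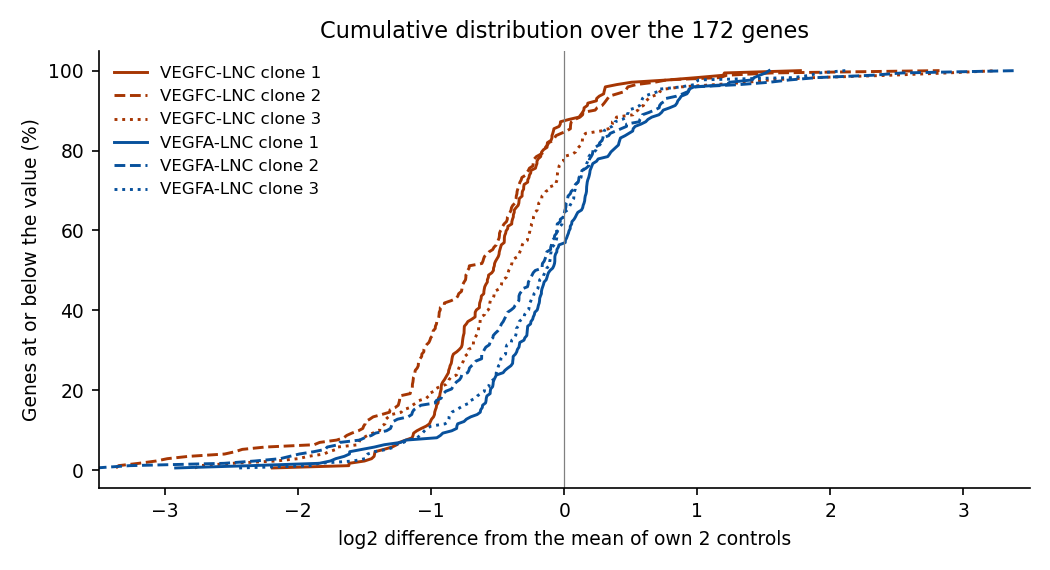
Cumulative distribution of the log2 difference of each of the 172 members from the mean of its own 2 controls, with 1 line per clone (orange-brown for *VEGFC-LNC*, blue for *VEGFA-LNC*). The *VEGFC-LNC* lines cross 50% at -0.53, -0.72 and -0.41, and the *VEGFA-LNC* lines at -0.10, -0.19 and -0.13.

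The 5 called members do different work in the cell. *PRIMPOL*, a primase-polymerase that restarts stalled replication forks, was expressed at 6.62 and 7.24 FPKM in the *VEGFC-LNC* controls and at 2.51, 2.81 and 1.96 FPKM in the clones. The log2 difference was -1.49 ± 0.17 (SE, adjusted p = 0.011). Each clone was thus far below both controls and also below the 4.78 to 5.59 FPKM of the 5 libraries of the *VEGFA-LNC* set. *PRIMPOL* overlaps *CENPU* on the opposite strand at its distal end, and whether counting used the strand is not given in the sources used here.

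*NDUFC1*, a subunit of respiratory complex I, was at 23.6 and 23.5 FPKM in the *VEGFC-LNC* controls and at 10.9, 10.7 and 12.9 FPKM in the clones, a log2 difference of -1.04 ± 0.13 (SE, adjusted p = 0.014). The 5 *VEGFA-LNC* libraries lay between 23.9 and 26.9 FPKM, so that the 3 clones were the only libraries below 23 FPKM. Its neighbour *NAA15*, which encodes the auxiliary subunit of the N-terminal acetyltransferase NatA and overlaps it at the start on the other strand, had 23.0 and 24.0 FPKM in the controls and 13.4, 9.89 and 11.4 FPKM in the clones. That difference of -1.03 was not called (adjusted p = 0.082).

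*ETFDH*, the enzyme that passes electrons from the electron transfer flavoprotein to ubiquinone, fell from 4.29 and 3.58 FPKM to 2.002, 1.70 and 1.45 FPKM (log2 difference -1.16 ± 0.19, SE, adjusted p = 0.039). *TRIML2*, a tripartite motif family-like gene near the end of the chromosome, had 47.0 and 43.6 FPKM in the controls and 23.7, 20.3 and 18.3 FPKM in the clones. Its log2 difference was -1.13 ± 0.15 (SE, adjusted p = 0.021). The vesicle trafficking gene *LRBA* changed least of the 5, from 11.8 and 11.9 FPKM to 6.998, 7.19 and 6.78 FPKM (log2 difference -0.76 ± 0.13, SE, adjusted p = 0.047). For these 3 genes the groups did not overlap.

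The lower level was not equally large at all positions. Medians of members in 10-Mb intervals, taken after subtracting the median of other chromosomes in the same clone, were used to describe the course along the arm. Between 110 and 120 Mb (22 members) they were -0.55 in clone 1 and -0.58 in clone 2, but -0.15 in clone 3. Between 120 and 130 Mb (29 members) they were -0.64, -0.56 and -0.22. The 4 members between 130 and 140 Mb had medians of -0.05, -0.69 and 0.19. From 140 to 150 Mb (31 members) clone 3 had a median of -0.45, beside -0.47 in clone 1 and -0.31 in clone 2. The interval from 150 to 160 Mb (26 members) gave -0.50, -0.72 and -0.58, and that from 160 to 170 Mb (11 members) the smaller values of -0.29, -0.33 and -0.36. For 170 to 180 Mb (15 members) the medians were -0.38, -0.79 and -0.97, and for 180 to 190 Mb (22 members) they were -0.50, -0.42 and -0.52. Clone 3 was therefore nearer to its controls than clones 1 and 2 before 130 Mb, and at or below at least 1 of them from 140 Mb on. This contrast between clones was noticed in the profile and was not tested. Over the 172 members, Spearman's rho of the log2 difference was -0.19 with position, -0.11 with mean level and 0.19 with transcript length, given as a description over genes that share libraries.

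**Figure D3:**
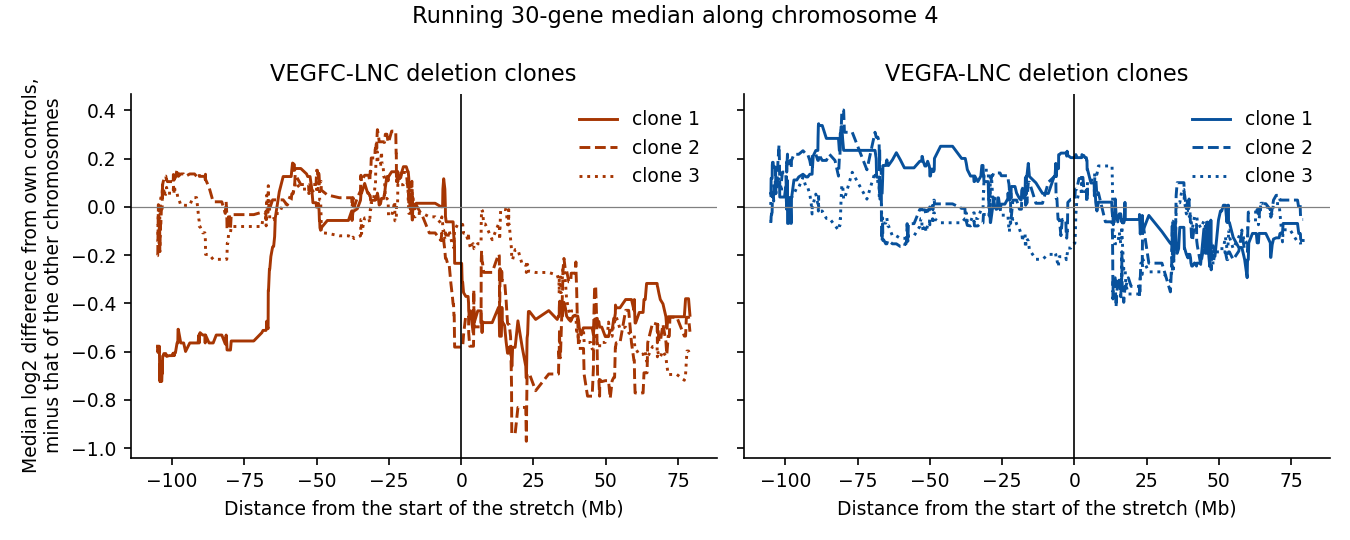
Running median over 30 consecutive tested genes of the log2 difference from own controls, minus the median of the other chromosomes in the same clone, plotted against distance in Mb from the start of the stretch (vertical line) for the *VEGFC-LNC* clones (left) and the *VEGFA-LNC* clones (right). To the right of the line all 3 *VEGFC-LNC* lines run below 0 over most of the stretch, clone 3 less so over the first part, and clone 1 is also low at the far left.

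No step was seen over the genes nearest to the start of the stretch. The first 5 members, *PPA2*, *INTS12*, *GSTCD*, *TBCK* and *AIMP1*, had log2 differences of 0.07, -0.60, -0.85, -0.01 and -0.46. The last 5 genes before it, *CISD2*, *SLC9B2*, *BDH2*, *CENPE* and *TET2*, had -0.45, -0.18, -0.07, -1.84 and -0.60, so values on both sides of the boundary overlapped. In clone 2 the 17 genes between 100 Mb and the boundary already had a median of -0.58 relative to other chromosomes, while clones 1 and 3 had 0.11 and -0.09 there. The last 5 members, *TLR3*, *CYP4V2*, *FAT1*, *TRIML2* and *FRG1*, had -0.63, 0.28, -2.30, -1.13 and -0.74. Within 2 Mb of *VEGFC*, *WDR17* had -0.42, the signal peptidase subunit *SPCS3* -0.35, *NEIL3* -2.16 and the lysosomal enzyme *AGA* -0.93, beside -0.998 for *VEGFC*. With the boundary moved 10 Mb along the arm, 145 members remained and their median was -0.52.

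The list of cell division, DNA repair and chromatin had the lowest median of the role lists and held 3 of the 5 lowest members, *MND1*, *NEIL3* and *CENPU*, the other two being *FAT1* and *AADAT*. All 19 listed members were lower in the *VEGFC-LNC* clones, all 19 had 3 clones below both controls, and 1, *PRIMPOL*, was called. The 3 clones lay below both controls for 65.7% of all members and 30.6% of all tested genes. The median log2 difference was -0.88, with a range of -2.39 to -0.25. *MND1*, a partner of the recombinase machinery of meiosis, had 8.22 and 7.74 FPKM in the controls and 2.53, 1.04 and 1.11 FPKM in the clones (log2 difference -2.39 ± 0.67, SE, adjusted p = 0.14). The DNA glycosylase gene *NEIL3* had 6.44 and 7.12 FPKM in the controls and 3.31, 0.769 and 1.12 FPKM in the clones (-2.16 ± 0.90, SE, adjusted p = 0.25). For both genes clone 1 was the highest of the clones.

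*CCNA2*, encoding cyclin A2 of S phase and mitosis, had 32.9 and 31.6 FPKM in the controls and 13.1, 3.03 and 11.3 FPKM in the clones. *PLK4*, the kinase that starts centriole duplication, had 10.9 and 11.6 FPKM and 4.65, 1.14 and 3.81 FPKM. The chromatin protein gene *HMGB2* had 108 FPKM in both controls and 39.4, 18.3 and 26.8 FPKM in the clones, a log2 difference of -2.001 ± 0.46 (SE, adjusted p = 0.094). In all 3 genes clone 2 was the lowest library of the 5. The chromatin remodeller *SMARCA5* (log2 difference -0.72), the anaphase-promoting complex subunit *ANAPC10* (-0.75) and the Sin3 complex members *SAP30* (-0.81) and *ING2* (-1.15) differed less between clones and were not called either (adjusted p between 0.082 and 0.16).

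The same mitotic genes also varied in libraries without the *VEGFC-LNC* deletion. *CCNA2* was at 10.8 and 11.0 FPKM in the *VEGFA-LNC* controls and at 30.3, 2.09 and 3.79 FPKM in the *VEGFA-LNC* clones, so that *VEGFA-LNC* clone 1 was near the *VEGFC-LNC* controls and the other two clones were near the lowest *VEGFC-LNC* clone. *HMGB2* differed between the control sets by 2.34 on the log2 scale (adjusted p = 0.022), being higher in the *VEGFC-LNC* controls. Of 31 cell division genes on other chromosomes, among them *MKI67*, *TOP2A* and *CDK1*, all 31 were lower in the *VEGFC-LNC* clones than in the controls, with a median of -1.60, and all 31 were higher in the *VEGFC-LNC* than in the *VEGFA-LNC* controls, with a median of 1.44. Their median relative to own controls was 1.23, -1.84 and -1.29 in *VEGFA-LNC* clones 1 to 3 and -0.67, -2.69 and -1.61 in *VEGFC-LNC* clones 1 to 3. The part of this variation in the values of the members was not tested. Without the 19 listed genes the median of the other 153 members was -0.48 and 124 were lower, in the comparison that selected the stretch.

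The bases just before the start are shown for 7 members that work in cell division or DNA repair. Many cell cycle promoters are known to hold a CCAAT box or a cell cycle homology element. Each of the 7 had a log2 difference of -1.52 or lower in the *VEGFC-LNC* comparison. *HMGB2*, also in that range, is not shown, and *ZGRF1*, which is shown, is in none of the role lists. Given are the 150 bases before the start from RefSeq's promoter table (GRCh38.p14), each of which was found at 1 place on chromosome 4 of GRCh37, whose coordinates are printed. These starts are not those of the transcripts in the expression table, which begin further upstream, so that 10 (*MAD2L1*) to 118 (*CCNA2*) of the 150 bases lie inside the transcript measured. Capitals mark CCAAT (or ATTGG, the same on the other strand) and TTTGAA (or TTCAAA), which can share a single base.
CCNA2, cyclin A2, chr4:122745039-122745188, minus strand: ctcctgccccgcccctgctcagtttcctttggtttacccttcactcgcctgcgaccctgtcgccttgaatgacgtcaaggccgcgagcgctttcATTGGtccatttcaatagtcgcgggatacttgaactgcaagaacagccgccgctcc
CENPU, the centromere protein, chr4:185655251-185655400, minus strand: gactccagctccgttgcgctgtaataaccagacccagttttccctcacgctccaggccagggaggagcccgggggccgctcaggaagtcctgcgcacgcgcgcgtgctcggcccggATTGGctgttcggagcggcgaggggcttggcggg
NEIL3, the DNA glycosylase, chr4:178230878-178231027, plus strand: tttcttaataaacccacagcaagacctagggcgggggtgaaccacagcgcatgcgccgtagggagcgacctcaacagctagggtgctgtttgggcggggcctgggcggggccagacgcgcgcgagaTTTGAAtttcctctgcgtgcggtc
ZGRF1, the DNA helicase, chr4:113558066-113558215, minus strand: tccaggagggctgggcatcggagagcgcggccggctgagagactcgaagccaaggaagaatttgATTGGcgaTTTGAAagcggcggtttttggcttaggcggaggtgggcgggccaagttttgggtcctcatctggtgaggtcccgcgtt
PLK4, the centriole kinase, chr4:128801898-128802047, plus strand: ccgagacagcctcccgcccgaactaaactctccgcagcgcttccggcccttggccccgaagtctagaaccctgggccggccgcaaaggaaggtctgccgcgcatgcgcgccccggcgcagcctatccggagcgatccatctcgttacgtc
MND1, the recombination protein, chr4:154265690-154265839, plus strand: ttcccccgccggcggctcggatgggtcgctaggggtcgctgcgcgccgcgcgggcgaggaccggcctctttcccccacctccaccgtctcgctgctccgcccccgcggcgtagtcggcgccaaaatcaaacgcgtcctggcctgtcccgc
MAD2L1, the spindle checkpoint protein, chr4:120988004-120988153, minus strand: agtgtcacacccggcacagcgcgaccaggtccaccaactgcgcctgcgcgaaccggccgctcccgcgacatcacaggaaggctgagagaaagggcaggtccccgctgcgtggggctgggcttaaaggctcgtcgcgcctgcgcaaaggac
CCAAT was found in the windows of *CCNA2*, *CENPU* and *ZGRF1*, 56, 34 and 86 bases before the start, and TTTGAA in those of *NEIL3* and *ZGRF1*, 24 and 78 bases before it. The windows of *PLK4*, *MND1* and *MAD2L1* held neither. Other forms of the motifs, such as cttgaa in the window of *CCNA2*, were not searched for. The table matched 138 of the 172 members, of which 25.4% had CCAAT and 9.42% TTTGAA, compared with 23.5% and 7.33% of all 35116 promoters. Of 18 matched members of the cell division list, which does not hold *ZGRF1*, 2 had CCAAT and 2 had TTTGAA. A match of letters is not evidence of a factor bound there.

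**Figure D4:**
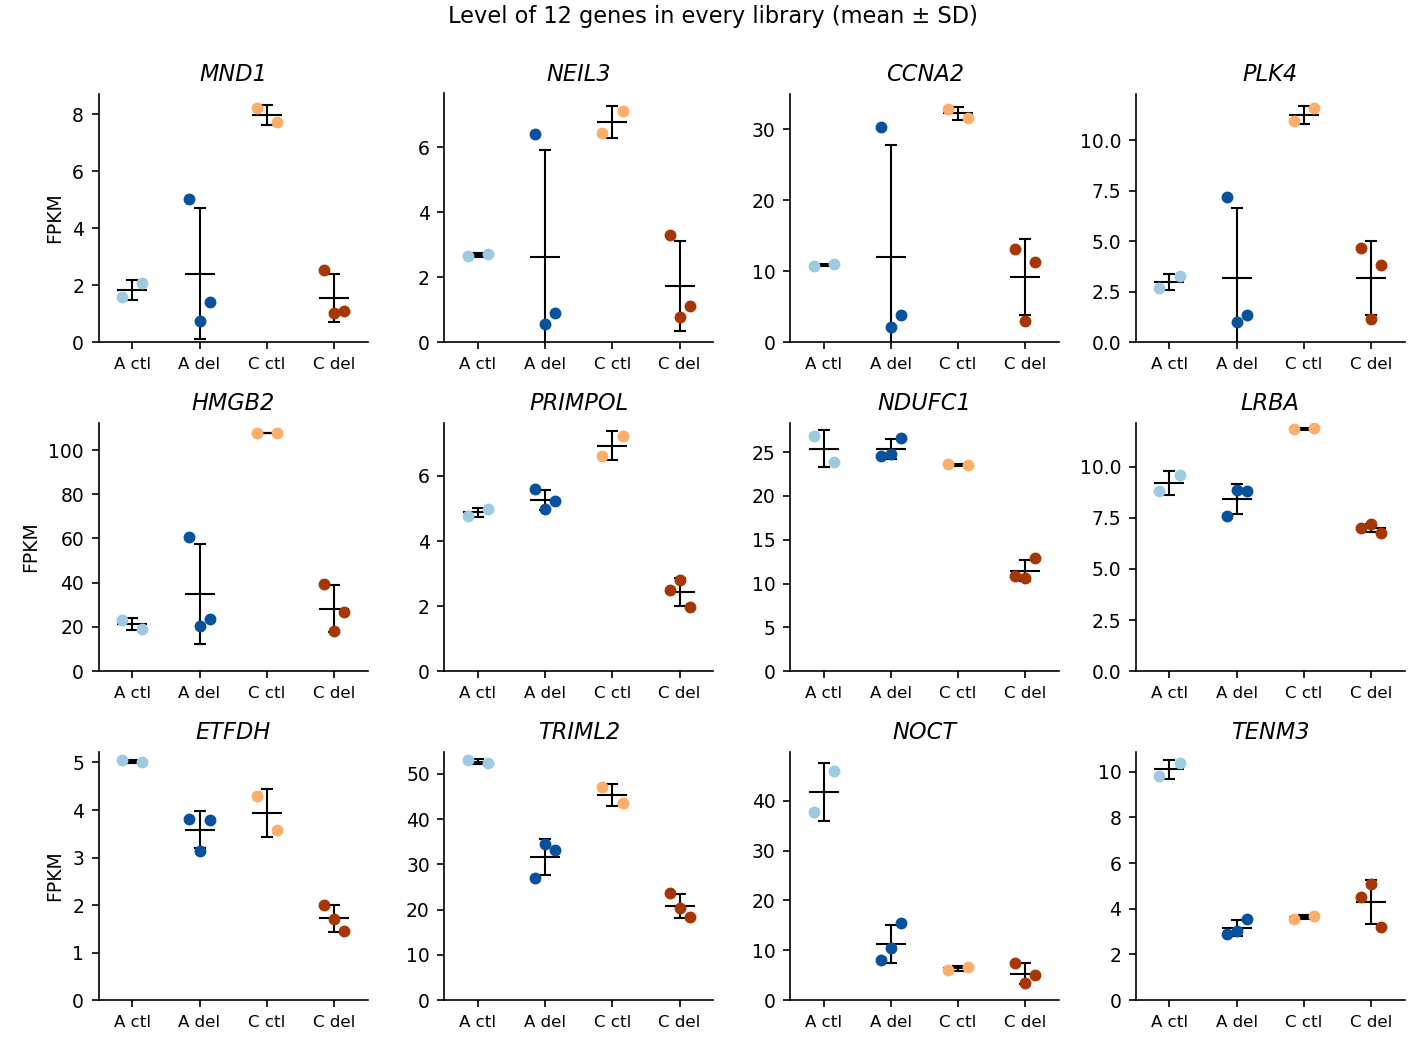
FPKM of 12 members in every library (points), with the mean and SD of each group (bars and whiskers, those reaching below 0 not drawn to their end); A ctl and A del are the *VEGFA-LNC* controls and clones, C ctl and C del those of *VEGFC-LNC*. *PRIMPOL*, *NDUFC1*, *LRBA*, *ETFDH* and *TRIML2* were lower in every *VEGFC-LNC* clone than in all other libraries, whereas *CCNA2*, *PLK4* and *HMGB2* also spread widely among the *VEGFA-LNC* clones and *NOCT* and *TENM3* were highest in the *VEGFA-LNC* controls.

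Genes of RNA and protein synthesis were lower as a group as well. All 16 listed members had a negative log2 difference in the *VEGFC-LNC* comparison, with a median of -0.76, and 0 were called. In 13 of the 16 every clone was below both controls, against 65.7% of all members and 30.6% of all tested genes. *ABCE1*, which recycles ribosomes, had 29.9 and 29.4 FPKM in the controls and 14.7, 13.4 and 11.7 FPKM in the clones (log2 difference -1.16 ± 0.22, SE, adjusted p = 0.059). *LSM6*, of the ring that binds U6 RNA, had 16.1 and 16.8 FPKM and 8.17, 7.48 and 7.03 FPKM. In both genes the clones lay near each other and well below their own controls. *LSM6* was also called higher in the *VEGFC-LNC* controls than in the *VEGFA-LNC* controls. Relative to depth, its *VEGFC-LNC* clones lay between the 2 *VEGFA-LNC* controls (137 and 94 reads), not below both. The exosome subunit *EXOSC9* (-1.17), the cyclophilin *PPID* (-1.08), the ribosome assembly factor *TMA16* (-1.01) and the telomerase and snoRNP factor *NAF1* (-0.89) had similar values. The 2 ribosomal protein genes, which are the best expressed of this list, differed less. *RPS3A* had 631 and 656 FPKM in the controls and 532, 511 and 418 FPKM in the clones (-0.41 ± 0.18, SE, adjusted p = 0.27). *RPL34* had 262 and 270 FPKM and 179, 208 and 284 FPKM, so that clone 3 lay above both controls. Both have processed pseudogenes elsewhere in the genome that could share their reads.

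Among 17 genes of mitochondria and metabolism, 11 were lower, 6 were higher and 2, *NDUFC1* and *ETFDH*, were called, with a median of -0.48. *AADAT*, an aminotransferase of lysine and kynurenine breakdown, had the lowest value of the list, with 0.806 and 0.691 FPKM in the controls and 0.085, 0.078 and 0.142 FPKM in the clones (-2.08 ± 0.43, SE, adjusted p = 0.078), on 2 to 4 reads per clone. The beta-oxidation enzyme *HADH* (-1.13) and the sterol oxidase *MSMO1* (-1.03) were lower in every clone than in both of their own controls. Against the *VEGFA-LNC* controls this did not hold. *HADH* had 4.69 and 4.49 FPKM there and 4.14, 3.35 and 5.22 FPKM in the *VEGFC-LNC* clones. Relative to depth, clone 1 lay above both *VEGFA-LNC* controls for *MSMO1*. *PPA2*, a mitochondrial pyrophosphatase, had 10.0 and 10.1 FPKM in the controls and 7.93, 9.55 and 15.5 FPKM in the clones, and the glutathione transferase gene *MGST2* had 25.4 and 24.6 FPKM and 20.8, 29.7 and 36.1 FPKM. For these 2 genes the clones lay on both sides of the controls.

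The 21 genes of secretion, trafficking and ubiquitin had a median of -0.43, and 17 were lower. In 12 of the 21 every clone was below both controls, against 65.7% of all members. None was called, the smallest adjusted p in the list being 0.12, for the sorting nexin *SNX25* (-0.49). *OSTC*, a subunit of the oligosaccharyltransferase and the fourth most expressed member, had 43.9 and 44.2 FPKM in the controls and 48.5, 35.3 and 56.4 FPKM in the clones. The COPII coat gene *SEC24B* had 11.7 and 11.8 FPKM in the controls and 6.51, 6.86 and 11.4 FPKM in the clones, so that clone 3 was near the controls.

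Genes of innate immunity and cell death had a median of -0.56, and 7 of 10 were lower. Each of the 7 had all clones below both controls, a pattern seen in 65.7% of all members. The double-stranded RNA receptor gene *TLR3* had 4.41 and 4.495 FPKM in the controls and 2.78, 2.03 and 4.01 FPKM in the clones, and the interferon regulatory factor *IRF2* had 10.7 and 10.2 FPKM and 6.18, 5.56 and 8.34 FPKM. None of the 10 passed the threshold. *TNIP3* and *CFI* had the 2 highest log2 differences of all members (2.30 and 1.58), on few reads. *TNIP3*, an inhibitor of NF-kB signalling, was at 0.044 and 0.052 FPKM in the controls (1 and 3 reads) and at 0.241, 0.946 and 0.988 FPKM in the clones (13, 42 and 16 reads), with an adjusted p of 0.18. Its log2 difference was 0.69 with a pseudocount of 1 in place of 0.1. *CFI* had 0 and 2 reads in the controls and 2, 7 and 15 reads in the clones, so that its difference is not a measured fold.

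Growth and vascular signalling was the list with the median closest to 0, -0.18, and 14 of its 19 members were lower. In 8 of the 19 every clone was below both controls, against 65.7% of all members. The atypical cadherin *FAT1* had 2.24 and 1.99 FPKM in the controls and 0.621, 0.117 and 0.483 FPKM in the clones, the second lowest log2 difference of all members (-2.30 ± 0.50, SE, adjusted p = 0.085). *ANXA5*, the phosphatidylserine-binding annexin and the second most expressed member, had 398 and 397 FPKM in the controls and 234, 167 and 301 FPKM in the clones (-0.80 ± 0.27, SE, adjusted p = 0.19). *HHIP*, an antagonist of hedgehog ligands, and *SMAD1*, a transducer of BMP signals, had log2 differences of -0.03 and 0.00, with clones on both sides of the controls. The prohormone-processing enzyme gene *CPE* had 0.080 and 0.047 FPKM in the controls (2 and 3 reads) and 0.457, 0.123 and 0.787 FPKM in the clones (1.56 ± 0.54, SE, adjusted p = 0.20). With all 4 controls as 1 group its log2 difference was 0.09. The 70 members in none of the lists had a median of -0.47, with 59 lower. In 43 of the 70 every clone was below both controls, against 65.7% of all members and 30.6% of all tested genes.

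**Figure D5:**
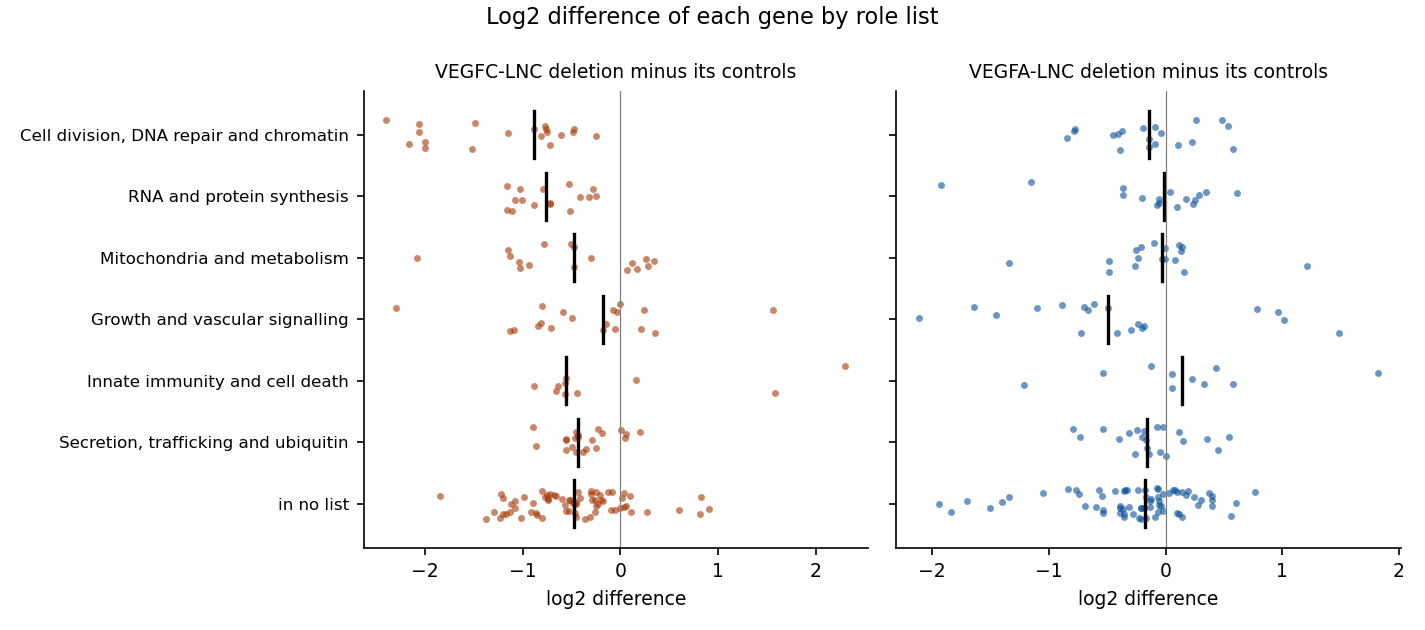
Log2 difference of each member (points) by role list, for the *VEGFC-LNC* deletion (left) and the *VEGFA-LNC* deletion (right), with black bars at the median. In the left panel the medians run from -0.88 for cell division to -0.18 for growth and vascular signalling, and in the right panel from -0.49 for growth and vascular signalling to 0.14 for innate immunity and cell death.

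The other deletion lies on another chromosome and was not used to choose the stretch. To see whether the stretch also differed upon it, the *VEGFA-LNC* clones were compared with their own controls. The members' median log2 difference was -0.14, with 115 lower and 57 higher, and that of other chromosomes was -0.06. By clone the members' median was -0.10, -0.19 and -0.13, which was 0.07 to 0.09 below that of other chromosomes in each clone. After scaling by the median of ratios the members' median was -0.09. All 3 clones lay below both controls for 51 members (29.7%), against 23.7% of all tested genes, and above both for 17 members (9.88%), against 15.3%. The 51 include *MYOZ2*, *FREM3* and *FSTL5*, which reached the expression filter in the *VEGFA-LNC* controls only. Of the members 3 (1.74%) were called lower, near the 2.02% of all tested genes, and 0 were called higher, where 0.735% of all tested genes were. At an unadjusted p under 0.05 in limma, 25 members (14.5%) were lower and 11 (6.40%) higher, near the 12.4% and 7.45% of all tested genes. With voom on recovered reads, 5 members (2.91%) were called lower and 0 higher, against 3.16% and 0.968% of all tested genes.

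The 3 called members were *NOCT*, *TENM3* and *TRIML2*. *NOCT*, a phosphatase of NADPH with circadian expression, had 37.7 and 45.9 FPKM in the *VEGFA-LNC* controls and 8.05, 10.4 and 15.4 FPKM in the clones (log2 difference -1.92 ± 0.35, SE, adjusted p = 0.028). *TENM3*, a transmembrane adhesion protein, had 9.82 and 10.4 FPKM and 2.92, 3.04 and 3.56 FPKM (-1.65 ± 0.20, SE, adjusted p = 0.0079). *TRIML2* had 53.1 and 52.4 FPKM and 27.1, 34.5 and 33.1 FPKM (-0.74 ± 0.15, SE, adjusted p = 0.039). In each gene every clone was well below both controls. How far the 3 calls held in refits is given as counts without the share of all tested genes, as a description of stability. These calls rested on both *VEGFA-LNC* controls, since 0 members were called without either of them, 21 without *VEGFA-LNC* clone 1, and 1 without *VEGFA-LNC* clone 2 or either *VEGFC-LNC* control. With each control pair averaged or with only the compared groups in the fit, 0 members were called.

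For *NOCT* and *TENM3* the level in the *VEGFC-LNC* controls was already near that of the *VEGFA-LNC* clones. *NOCT* was at 6.02 and 6.75 FPKM there, and *TENM3* at 3.57 and 3.69 FPKM. The controls of the *VEGFA-LNC* set were thus the 2 highest of the 10 libraries for both genes. *TRIML2* was the single member called in both deletions, and its controls did not differ beyond the threshold between the sets (log2 difference -0.22, adjusted p = 0.40).

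Other members had large log2 differences without passing the threshold. *HHIP* had 58.0 and 56.3 FPKM in the *VEGFA-LNC* controls and 29.95, 4.89 and 15.3 FPKM in the clones (-2.11, adjusted p = 0.19). *PCDH10*, a protocadherin gene, had 0.991 and 1.13 FPKM in the controls and 0.279, 0.237 and 0.113 FPKM in the clones (-1.95, adjusted p = 0.097). *MGARP*, a mitochondrial protein gene, had 34.1 and 36.5 FPKM in the controls but 35.5, 3.58 and 9.75 FPKM in the clones, clone 1 being at the level of the controls. *SMAD1* had 5.64 and 4.93 FPKM in the controls and 5.30, 31.2 and 20.2 FPKM in the clones (1.49, adjusted p = 0.27), and *MGST2* had 15.4 and 16.8 FPKM and 12.3, 80.4 and 53.2 FPKM (1.22, adjusted p = 0.34). In *MGARP*, *SMAD1* and *MGST2*, clones 2 and 3 went one way and clone 1 stayed at or near the controls. *CFI*, the complement regulator, had the largest positive value (1.82), on 7 and 2 reads in the controls and 3, 81 and 29 reads in the clones. The lists had medians between -0.49 (growth and vascular signalling, 15 of 19 lower) and 0.14 (innate immunity and cell death, 3 of 10 lower). The cell division list had -0.14, with 13 of 19 lower and 0 called, and RNA and protein synthesis -0.01, with 8 lower and 8 higher.

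The 2 control sets differed from each other at single members, and their comparison shares the controls with the others. In the *VEGFC-LNC* controls 9 members (5.23%) were called lower than in the *VEGFA-LNC* controls, where 9.76% of all tested genes were, and 5 (2.91%) were called higher, where 2.92% were. Among those called lower, *MYOZ2* and *FREM3* reached the expression filter in the *VEGFA-LNC* controls only, so the filter itself favoured such a difference. The lowest values were those of *MYOZ2* (-3.17, on 1 read in each *VEGFC-LNC* control), *CPE* (-2.95), *NOCT* (-2.69), *CTSO* (-2.61) and *HHIP* (-2.20). The highest were those of *HMGB2* (2.34), *MND1* (2.07), *PLK4* (1.89), *CCNA2* (1.56) and *ZGRF1* (1.48), of which *HMGB2* was called. *FRG1*, the last gene of the arm, which has near-identical copies elsewhere in the genome, was called higher as well (1.03, adjusted p = 0.0067). It had 18.0 and 15.5 FPKM in the *VEGFA-LNC* controls, 34.4 and 33.9 FPKM in the *VEGFC-LNC* controls and 19.0, 20.6 and 21.6 FPKM in the *VEGFC-LNC* clones. Its clones were therefore below their own controls but not below the controls of the other set. With all 4 controls taken as 1 group, the 3 *VEGFC-LNC* clones lay below all of them for 79 of the 172 members (45.9%), as they did for 15.5% of all tested genes. These shares include the libraries on which the stretch was selected and lend it no support.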

How the data were processed

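Directional libraries of rRNA-depleted RNA were sequenced single-end. Per the labels and the study's methods, reads were trimmed with Trim Galore (version 0.4.4) and aligned with STAR (version 2.5.4b) to GRCh37. The authors deposited FPKM values per RefSeq transcript on hg19, scaled by transcript length and library size. How that table was made is not given in the sources used here.

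FPKM steps gave whole reads for 100% of the values checked (tolerance 0.1 read). Intervals and depth from reads cover counting error only. Of 65572 transcript rows, 42 naming no gene were dropped (under 0.035% of reads per library). The row with the highest mean FPKM was kept per symbol, and symbols with FPKM × length in kb of at least 1 in at least 2 libraries were tested. Values were fitted as log2(FPKM + 0.1) with limma (version 3.58.1, lmFit and eBayes with trend, R version 4.3.3) in 4 groups and 10 libraries (6 residual degrees of freedom). P-values were adjusted by Benjamini-Hochberg over all 13333 tested genes, and a gene was called at an adjusted p under 0.05 and a fold change of at least 1.5. Fold changes on this scale understate those of weakly expressed genes. The fit was tested on simulated data. p-values measure the spread between these libraries, which for the controls may be technical.

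The members, role lists and tests were chosen with earlier results of these data known. The list of 31 cell division genes on other chromosomes and the contrast between clones along the arm were added after values were seen. Named genes were the members of the role lists, the 5 lowest and 5 highest log2 differences of each comparison, members called in the *VEGFA-LNC* comparison, the 10 with the highest mean FPKM, the first and last 5 of the stretch with the 5 genes before it, and those within 2 Mb of *VEGFC*. *LRBA* was named after its values were seen. Values of 1 listed gene are not reported here. Alternatives were other pseudocounts, filters, scalings, control groupings, transcripts, left-out libraries, a replicate block, voom on recovered reads and a later boundary. Summaries and plots were made with pandas (version 2.3.3), scipy (version 1.17.1) and matplotlib (version 3.10.9) in Python (version 3.11.15).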

Additional observations from a re-analysis of the deposited data

Results flagged for a closer look

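For 5 members the effects of the 2 deletions differed in limma at the same threshold, by the difference between the log2 difference in the *VEGFC-LNC* set and that in the *VEGFA-LNC* set. The difference was -1.60 for *PRIMPOL* (adjusted p = 0.022), -1.25 for *ELF2* (0.038), -1.14 for *FRG1* (0.030), -1.04 for *NDUFC1* (0.031) and 1.85 for *TENM3* (0.023). For *TENM3* the log2 difference was -1.65 in the *VEGFA-LNC* set and 0.21 in the *VEGFC-LNC* set. The ETS factor *ELF2* was higher in all 3 *VEGFA-LNC* clones and lower in all 3 *VEGFC-LNC* clones than in both controls of the set. Since the members were selected on the *VEGFC-LNC* comparison, which enters these differences, they are descriptions. The share of all tested genes that passed is not given here, so the count of 5 shows nothing particular to the stretch. The control sets themselves differed for *TENM3* (log2 difference -1.45), *FRG1* (1.03) and *ELF2* (0.78), and the part of this in the differences was not tested.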

How the results depend on the processing

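The median of the members in the *VEGFC-LNC* comparison was negative under all alternatives run, and 1 SD of the 3 clone medians (0.16) was exceeded only with no filter (-0.25, 282 members). It ranged from -0.62 to -0.49 when a library was left out, and the count with every clone below both controls from 113 to 130. Calls of single members were less stable, and the share of all tested genes called is not given for most of these refits. In the *VEGFC-LNC* comparison they numbered 0 with only the compared groups or with control pairs averaged, and 0 to 50 when a library was left out. In the *VEGFA-LNC* comparison they numbered 6 with a pseudocount of 1, 9 with no filter, 5 with voom, 0 with all 4 controls together, only the compared groups or averaged pairs, and 0 to 21 without a library. The *VEGFA-LNC* median was -0.090 after scaling by the median of ratios and -0.19 to -0.093 without a library. Members with every *VEGFA-LNC* clone on 1 side of the controls numbered 26 against all 4 controls and 68 to 128 without a library, the highest without *VEGFA-LNC* clone 1. Between control sets the median was 0.027 with a filter of 5 in place of 1, -0.11 with no filter, 0.093 after scaling by the median of ratios, -0.035 with the later boundary, -0.068 without the cell division list (an alternative chosen after seeing the data) and -0.046 to -0.011 without a library. The calls there numbered 9 with the stricter filter, 60 with only the compared groups, 0 with averaged pairs and 0 to 38 without a library. With a replicate block, 1 member was called in each deletion, and same-numbered samples did not deviate together (correlations of -0.043 to 0.047). Of single genes named in the *VEGFA-LNC* comparison, *NOCT*, *TENM3* and *TRIML2* lost their call in 26 refits and 6 others gained one in 8, with no change of sign. The cause was not tested. Depth limits the 24 members with fewer than 10 reads in some library.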

Other observations

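In clone 1 of the *VEGFC-LNC* deletion, genes at the other end of chromosome 4 were also low. Relative to other chromosomes in the same clone, the median log2 difference from the controls was -0.58 over 68 genes between 0 and 10 Mb, -0.56 over 18 genes between 10 and 20 Mb, -0.57 over 14 genes between 20 and 30 Mb and -0.55 over 20 genes between 30 and 40 Mb. From 40 to 50 Mb (18 genes) it was 0.15. Clones 2 and 3 had 0.09 and 0.03 in the first of these intervals. The median of clone 1 in the stretch from *PPA2* to *FRG1* was -0.48 relative to other chromosomes, close to its value on that other end. These intervals were chosen after the profile was seen, and the difference between clones was not tested.

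Of the 10 members with the highest mean FPKM, *HMGB2*, *TRIML2*, *ANXA5*, *RPS3A*, *SPCS3* and *FAM198B* had every *VEGFC-LNC* clone below both controls, while *RPL34*, *OSTC*, *SNHG8* and *MGST2* did not. That pattern was seen in 65.7% of all members and 30.6% of all tested genes. *FAM198B* differed by -0.09 on the log2 scale, with 30.2 and 31.0 FPKM in the controls and 28.0, 28.9 and 29.5 FPKM in the clones.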
